A study of Mus musculus with 20 samples.

Results

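The genes of the proteasome were followed in the livers of 20 mice. They were taken as the probe sets that stand for exactly 1 gene and whose gene symbol begins with Psma, Psmb, Psmc, Psmd, Psme, Psmf or Psmg and a digit, with Psma8 left out, and no measured value entered this choice. The rule found 55 probe sets of 49 genes, and 46 of these probe sets had values, 1 for each of 46 genes, among 25689 probe sets with values in all. Psma3, Psma4 and Psmd11 had no value on any array and were not analysed here. A further probe set shared by several genes, Psme2 among them, was left out. Of the 46 genes, Psmc3ip and Psme3ip1 carry a subunit-like name without being subunits, and they are reported as such.

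The proteasome is the protease that degrades proteins tagged with ubiquitin. Its 20S core is a barrel of alpha rings and beta rings, with the active sites on the inner face of the beta rings, and the 19S cap binds ubiquitin, unfolds the substrate with a ring of ATPases and removes the ubiquitin chain with its lid. Other activators can bind the barrel in place of the cap, dedicated chaperones assemble core and cap, and immune cells or cells exposed to interferon exchange the standard catalytic subunits for those of the immunoproteasome. In hepatocytes the proteasome works beside autophagy in the turnover of proteins.

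The KO group at 12 h and the KO group at 0 h were Crem-/- mice, which lack a functional gene for the cAMP-responsive transcription factor CREM, and the WT group at 12 h and the WT group at 0 h were wild-type animals, with 5 mice in each group. All mice were 8 weeks old, of a mixed 129Pas x C57Bl/J background, untreated, with food and water always available, and lived with 12 h of light and 12 h of darkness. The 12 h livers were collected when the light went off, and the 0 h livers when it came on. One GeneChip array was run on total RNA from the whole liver of each mouse, and values are log2 expression after RMA, which corrects background and normalizes the arrays to each other. All 10 arrays of the 12 h livers were batch 5, while the 0 h arrays fell into batches 1 to 4, each with both genotypes, so that a change between the times and a change between batches cannot be told apart. In whole liver, fewer cells of a type and less RNA per cell cannot be told apart either.

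Crem, the disrupted gene, read 7.39 to 7.83 in KO livers and 7.90 to 8.02 in WT livers at 12 h, without overlap (KO minus WT -0.37, exact permutation p = 0.00794, limma adjusted p = 0.19). At 0 h it read 7.43 to 8.17 in KO livers and 8.11 to 8.54 in WT livers (KO minus WT -0.48, exact permutation p = 0.0159, adjusted p = 0.987). The stretch of Crem that the probe set reads is unknown here. The 6 measured hepatocyte markers had mean levels of 13.85 to 13.94 in all 20 livers, and all 7 measured genes of the circadian clock list differed between the times in both genotypes, 6 higher and 1 lower at 12 h. Correlations between any 2 arrays ran between 0.969 and 0.994. The median log2 value of an array was 7.13 to 7.17 at 12 h and 7.19 to 7.23 at 0 h in KO. In WT it was 7.07 to 7.15 at 12 h and 7.18 to 7.24 at 0 h. All 12 h arrays had lower medians than all 0 h arrays.

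At the end of the light phase most proteasome genes were lower than at its start, in both genotypes. In KO livers 27 of the 46 genes fell and 2 rose (limma over all probe sets, Benjamini-Hochberg adjusted p under 0.05), whereas 9.69% of all probe sets fell and 10.6% rose. In WT livers 29 genes fell and 1 rose, beside 14.3% of all probe sets that fell and 13.5% that rose. The same 26 genes fell in both genotypes, where 6.2% of all probe sets did so. The median log2 fold change of the 46 genes was -0.28 in KO and -0.29 in WT, against -0.02 and -0.03 over all probe sets. With each array centred on its own median the counts were 23 lower and 3 higher in KO and 24 lower and 4 higher in WT, and that centring turned the calls over all probe sets from 52.2% to 69.6% higher in KO and from 48.5% to 72.6% higher in WT.

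Single mice showed the same order. In KO livers the 12 h values of 24 genes lay below every 0 h value (7.49% of all probe sets did so), and in WT livers those of 24 genes did (8.33% of all probe sets). For 20 genes all 10 mice at 12 h lay below all 10 mice at 0 h, which held for 3.04% of all probe sets. Psme4 was the 1 gene with the opposite order, and the share of all probe sets in that order was not counted.

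**Figure D1:**
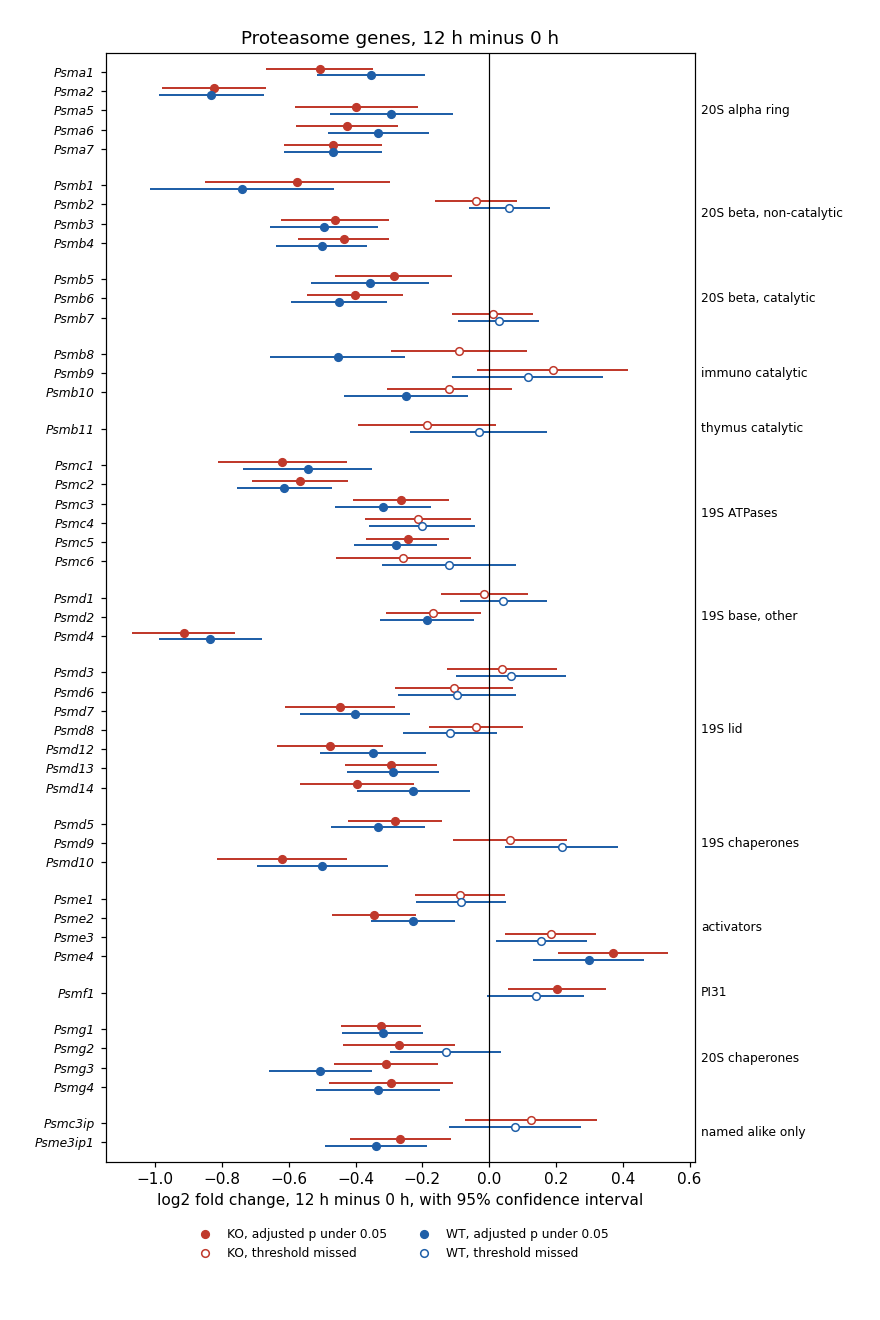
Log2 fold change between 12 h and 0 h for each of the 46 genes, grouped by role, in KO livers (red, upper line) and WT livers (blue, lower line). Lines are 95% confidence intervals, filled points passed an adjusted p under 0.05 and open points did not. The measured genes of the alpha ring lie wholly to the left of 0, while Psme4 lies to the right in both genotypes.

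The alpha ring, which gates the entrance of the barrel, fell in every measured member, while Psma3 and Psma4 had no value. All 5 measured members were lower at 12 h in KO and in WT, with median log2 fold changes of -0.47 and -0.35. Psma2, a ring subunit, changed most among them. Its log2 level was 10.01, 10.02, 10.11, 10.15 and 10.20 in KO livers at 12 h, against 10.75, 10.83, 10.90, 11.05 and 11.07 in KO livers at 0 h. In WT its log2 level was 9.97, 10.04, 10.07, 10.09 and 10.22 at 12 h, against 10.79, 10.87, 10.89, 10.92 and 11.09 at 0 h. Every 12 h liver lay below every 0 h liver, and the log2 fold change was -0.82 ± 0.08 in KO (SE, n = 5 per time, limma adjusted p = 9.4e-08) and -0.83 ± 0.08 in WT (adjusted p = 7.88e-08), or 0.565 and 0.562 times the 0 h level. The other measured ring members fell by smaller amounts, with log2 fold changes between -0.51 and -0.40 in KO and between -0.47 and -0.29 in WT.

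Of the 4 beta subunits without an active site, Psmb1, Psmb3 and Psmb4 fell in both genotypes, and Psmb2 gave -0.04 in KO and 0.06 in WT on the log2 scale. Psmb1 had the largest standard error of the 46 genes. Its log2 level was 9.57, 9.67, 9.76, 9.81 and 9.99 in KO livers at 12 h, against 10.13, 10.22, 10.40, 10.43 and 10.49 in KO livers at 0 h. In WT its log2 level was 9.38, 9.47, 9.74, 10.01 and 10.09 at 12 h, against 10.19, 10.30, 10.44, 10.65 and 10.80 at 0 h. The times did not overlap in either genotype, and the log2 fold change of Psmb1 was -0.57 ± 0.13 in KO (SE, n = 5 per time, limma adjusted p = 0.00337) and -0.74 ± 0.13 in WT (adjusted p = 0.000297).

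The 3 standard catalytic subunits did not move as a set, since Psmb5 and Psmb6 fell and Psmb7 did not pass the test. Psmb5 carries the chymotrypsin-like activity, and its log2 level was 10.01, 10.08, 10.16, 10.32 and 10.33 in KO livers at 12 h, against 10.40, 10.44, 10.45, 10.47 and 10.58 in KO livers at 0 h. The WT livers had log2 levels of 9.89, 10.25, 10.27, 10.31 and 10.35 at 12 h, against 10.50, 10.54, 10.54, 10.57 and 10.70 at 0 h. The times were apart in both genotypes, with 1 WT mouse at 12 h well below the other 4, and the log2 fold change was -0.29 ± 0.08 in KO (SE, n = 5 per time, limma adjusted p = 0.0194) and -0.36 ± 0.08 in WT (adjusted p = 0.00334). The KO call missed the threshold when KO mouse 1, 18 or 109 was left out, with log2 fold changes of -0.26, -0.24 and -0.26.

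Psmb6 carries the caspase-like activity, and its log2 level was 10.87, 10.89, 11.01, 11.03 and 11.03 in KO livers at 12 h, against 11.26, 11.34, 11.37, 11.41 and 11.46 in KO livers at 0 h. In WT the log2 level of Psmb6 was 10.78, 10.98, 11.04, 11.07 and 11.15 at 12 h, against 11.40, 11.40, 11.47, 11.48 and 11.51 at 0 h. All 12 h livers lay below all 0 h livers, and the log2 fold change was -0.40 ± 0.07 in KO (SE, n = 5 per time, limma adjusted p = 0.000213) and -0.45 ± 0.07 in WT (adjusted p = 5.89e-05). Psmb7 carries the trypsin-like activity, and its log2 level was 11.53, 11.54, 11.55, 11.59 and 11.60 in KO livers at 12 h, against 11.48, 11.51, 11.54, 11.60 and 11.61 in KO livers at 0 h. For Psmb7 in WT, values were 11.46, 11.55, 11.56, 11.57 and 11.60 at 12 h, against 11.43, 11.44, 11.52, 11.53 and 11.67 at 0 h. The times overlapped throughout, the log2 fold change was 0.01 in KO (adjusted p = 0.927, 95% interval -0.11 to 0.13) and 0.03 in WT (adjusted p = 0.758, -0.09 to 0.15), and the interval excludes a fall of the size seen for Psmb6.

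Stretches just upstream of 4 of these genes are shown because motifs in them differ among members that all fell. They are the 120 bases before the start of the gene, 5′ to 3′, from RefSeq (GRCm38.p6), with matches in capitals to the antioxidant response element TGACNNNGC, bound by the factors Nfe2l1 and Nfe2l2, and to the cAMP response element core TGACG, on either strand. Psmd4 is at chr3:95042615-95042734 on the minus strand, Psma2 at chr13:14613122-14613241 on the plus strand, Psmb5 at chr14:54617996-54618115 on the minus strand and Psmb6 at chr11:70525237-70525356 on the plus strand.
Psmd4: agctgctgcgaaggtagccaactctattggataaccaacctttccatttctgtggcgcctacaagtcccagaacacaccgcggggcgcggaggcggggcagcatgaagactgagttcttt
Psma2: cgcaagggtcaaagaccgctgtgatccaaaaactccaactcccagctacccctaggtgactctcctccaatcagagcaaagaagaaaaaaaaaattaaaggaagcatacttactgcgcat
Psmb5: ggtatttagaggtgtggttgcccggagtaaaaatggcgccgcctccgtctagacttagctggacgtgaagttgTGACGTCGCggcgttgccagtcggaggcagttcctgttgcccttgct
Psmb6: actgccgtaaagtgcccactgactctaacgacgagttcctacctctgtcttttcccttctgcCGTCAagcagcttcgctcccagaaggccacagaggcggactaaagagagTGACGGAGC
The Psmb5 stretch holds 1 match of the longer motif, 47 bases before the start, and the Psmb6 stretch holds 1 at 9 bases before it, each of them overlapping a TGACG. Psmb6 has a second TGACG at 58 bases before the start, on the other strand. In Psmd4 and Psma2, the members with the largest falls, neither set of letters is in the window of 250 bases. Other motifs were searched as well, and their matches are left in lower case above. Of these, the CCAAT box lies 95 bases before the start in Psmd4 and 54 bases before it in Psma2. Windows of 250 bases were present for 39 of the 46 genes. TGACG was in those of 16 (41%, 11 of the 23 that fell in both genotypes) and in 19.8% of all genes, the full element TGACGTCA in none of the members and 1.77% of all genes, and the longer motif TGACNNNGC in 5 members (12.8%) and 11.5% of all genes. The CCAAT box was in the windows of 47.8% of the genes that fell in both genotypes, 25% of the other members and 37.5% of all genes. The E-box was in 10.3% of the members and 6.86% of all genes, and the ROR element in 23.1% and 15.8%. Among the members that fell in both genotypes the E-box was in 4.35%, against 18.8% of the other members. For the ROR element these shares were 17.4% and 31.2%. All these matches describe letters and were not tested as binding sites.

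The immunoproteasome subunits Psmb8, Psmb9 and Psmb10 replace the standard catalytic ones in cells that meet interferon. None of the 3 passed in KO, and Psmb8 and Psmb10 fell in WT. Psmb8 had log2 levels of 8.56, 8.69, 8.74, 8.75 and 8.76 in KO livers at 12 h, against 8.59, 8.63, 8.71, 8.96 and 9.07 in KO livers at 0 h. WT mice had log2 levels of 8.26, 8.30, 8.41, 8.43 and 8.73 at 12 h, against 8.69, 8.87, 8.90, 8.94 and 8.99 at 0 h. The KO values overlapped between the times, and in WT 1 mouse at 12 h reached into the 0 h range. The log2 fold change of Psmb8 was -0.09 ± 0.10 in KO (SE, n = 5 per time, limma adjusted p = 0.563) and -0.45 ± 0.10 in WT (adjusted p = 0.00153). The difference between these changes was 0.36 (95% interval 0.08 to 0.65, adjusted p = 0.639), so that a difference between the genotypes in this change was not established.

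Psmb10 had log2 levels of 9.01, 9.14, 9.26, 9.35 and 9.40 in KO livers at 12 h, against 9.16, 9.29, 9.38, 9.38 and 9.54 in KO livers at 0 h. In WT the log2 level of Psmb10 was 9.01, 9.05, 9.23, 9.24 and 9.34 at 12 h, against 9.27, 9.35, 9.43, 9.50 and 9.57 at 0 h. The times overlapped in both genotypes, and the log2 fold change was -0.12 ± 0.09 in KO (SE, n = 5 per time, limma adjusted p = 0.381) and -0.25 ± 0.09 in WT (adjusted p = 0.0431). The WT call was lost without WT mouse 80, 111, 145, 147, 168 or 169, where the log2 fold change ran between -0.26 and -0.21, and with each array centred on its median, at -0.16. Psmb9 had log2 levels of 9.45, 9.68, 9.69, 9.69 and 9.91 in KO livers at 12 h, against 9.17, 9.32, 9.50, 9.54 and 9.93 in KO livers at 0 h. WT values of Psmb9 were 9.41, 9.43, 9.56, 9.57 and 9.62 at 12 h, against 9.29, 9.32, 9.41, 9.42 and 9.57 at 0 h. These values overlapped as well, with a log2 fold change of 0.19 ± 0.11 in KO (SE, n = 5 per time, limma adjusted p = 0.236) and 0.12 ± 0.11 in WT (adjusted p = 0.455), and without KO mouse 76 the KO value passed at 0.30.

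Markers of immune cells were read beside these genes. Of 7 macrophage and neutrophil markers measured, 2 fell in KO and 4 in WT, where 9.69% and 14.3% of all probe sets fell. These were Clec4f of Kupffer cells (log2 fold change -0.39 in KO and -0.74 in WT), Lyz2 (-0.35 and -0.40), Cd68 (-0.18 and -0.32) and Adgre1 (-0.25 and -0.44), of which Cd68 and Adgre1 missed the threshold in KO. Csf1r gave 0.18 and 0.15 without passing. The mean level of those 7 markers was 8.38 to 8.62 at 12 h and 8.50 to 8.82 at 0 h in KO livers, and 8.32 to 8.51 at 12 h and 8.59 to 8.85 at 0 h in WT livers. S100a8 and S100a9, also on this list, did not pass in either genotype. Their group means were 5.40 to 5.73 and 6.12 to 6.48. Of 11 leukocyte markers, 1 fell in each genotype (Ighm). The part of these cells in the immunoproteasome values was not tested.

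**Figure D2:**
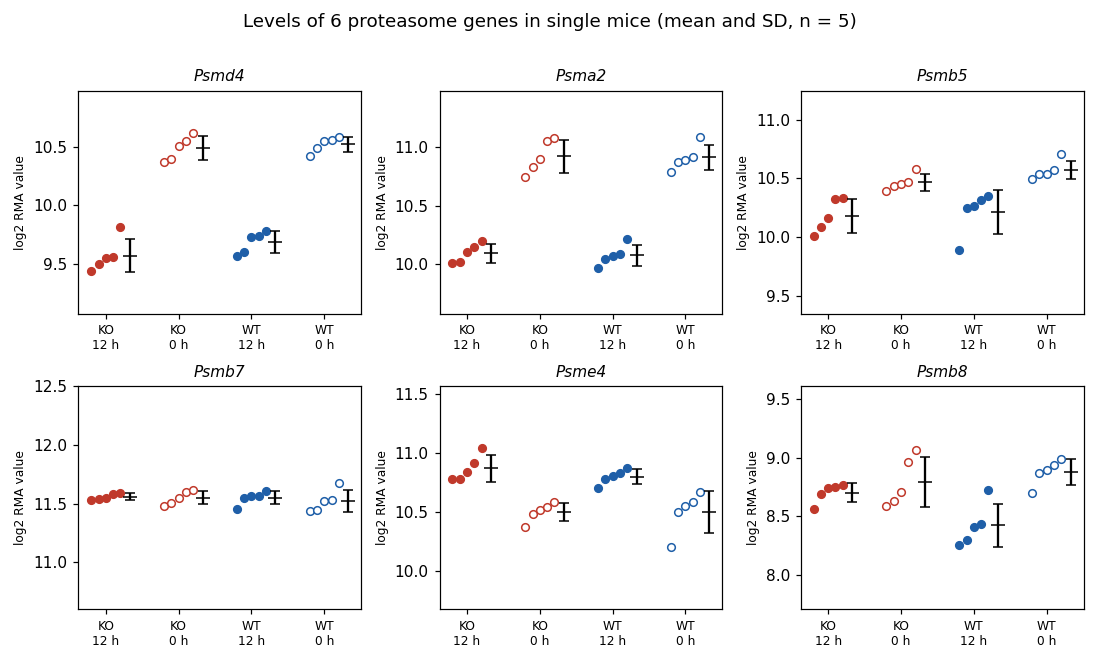
Log2 RMA value of 6 genes in single mice, KO in red and WT in blue, 12 h as filled and 0 h as open points, with the mean and SD beside them (n = 5). All panels span the same height in log2 units. Psmd4 and Psma2 separate the times in every mouse, Psmb7 does not separate them, and Psme4 lies higher at 12 h.

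The 19S cap fell in part. Of its 16 measured subunits of the Psm series, 9 fell in KO and 10 in WT, and none rose. Their median log2 fold changes were -0.26 and -0.25, against -0.43 and -0.40 for the 12 subunits of the 20S core. This difference was not tested. Sem1, a cap subunit named outside that series, is given further below and is not counted here. Psmd4, a ubiquitin receptor of the cap, had the largest fall of the 46 genes in KO and one level with Psma2 in WT. Its log2 level was 9.44, 9.50, 9.55, 9.56 and 9.81 in KO livers at 12 h, against 10.37, 10.40, 10.51, 10.54 and 10.62 in KO livers at 0 h. In WT its log2 level was 9.57, 9.60, 9.73, 9.74 and 9.79 at 12 h, against 10.42, 10.49, 10.55, 10.56 and 10.59 at 0 h. The times were far apart in both genotypes, at a log2 fold change of -0.91 ± 0.07 in KO (SE, n = 5 per time, limma adjusted p = 1.77e-08) and -0.83 ± 0.07 in WT (adjusted p = 6.42e-08), or 0.531 and 0.561 times the 0 h level. In the base of the cap the scaffold Psmd1 gave -0.01 and 0.04, and Psmd2, the scaffold that docks ubiquitin shuttles, passed in WT and missed the threshold in KO.

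Psmd2 had log2 levels of 11.26, 11.27, 11.30, 11.33 and 11.36 in KO livers at 12 h, against 11.23, 11.44, 11.49, 11.59 and 11.60 in KO livers at 0 h. In WT its log2 level was 11.22, 11.28, 11.30, 11.32 and 11.44 at 12 h, against 11.45, 11.48, 11.48, 11.54 and 11.55 at 0 h. The KO values overlapped, with 1 mouse at 0 h below the 12 h mice, and the WT values did not. The log2 fold change of Psmd2 was -0.17 ± 0.07 in KO (SE, n = 5 per time, limma adjusted p = 0.0891) and -0.19 ± 0.07 in WT (adjusted p = 0.0462), and with 1 array left out the WT call held without KO mouse 1, 55, 143 or 144 or WT mouse 167, while in the other 15 fits it was lost and the log2 fold change was -0.20 to -0.16. With each array centred on its median the WT value was -0.10 and the call was lost. The KO call was gained among brighter probe sets alone (-0.17, adjusted p = 0.0412) and without KO mouse 143 (-0.23).

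Of the 6 ATPases that unfold the substrate, Psmc1, Psmc2, Psmc3 and Psmc5 fell in both genotypes, while Psmc4 gave -0.21 and -0.20 and Psmc6 gave -0.26 and -0.12 without passing. Psmc1 had log2 levels of 10.42, 10.43, 10.53, 10.56 and 10.63 in KO livers at 12 h, against 10.94, 10.99, 11.03, 11.29 and 11.40 in KO livers at 0 h. In WT the log2 level of Psmc1 was 10.29, 10.30, 10.42, 10.51 and 10.61 at 12 h, against 10.82, 10.91, 10.93, 11.00 and 11.17 at 0 h. The times did not overlap, and the log2 fold change was -0.62 ± 0.09 in KO (SE, n = 5 per time, limma adjusted p = 4.17e-05) and -0.54 ± 0.09 in WT (adjusted p = 0.000168). Psmc2 had log2 levels of 10.10, 10.18, 10.21, 10.23 and 10.25 in KO livers at 12 h, against 10.61, 10.76, 10.77, 10.82 and 10.84 in KO livers at 0 h. For Psmc2 the WT mice had 10.01, 10.03, 10.17, 10.18 and 10.30 at 12 h, against 10.62, 10.72, 10.78, 10.79 and 10.85 at 0 h. The mice of each time lay close together, and the log2 fold change was -0.57 ± 0.07 in KO (SE, n = 5 per time, limma adjusted p = 3.68e-06) and -0.61 ± 0.07 in WT (adjusted p = 1.27e-06).

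Psmc3 and Psmc5 showed the smaller falls among the ATPases that passed. Psmc3 had log2 levels of 9.85, 9.89, 9.96, 10.03 and 10.16 in KO livers at 12 h, against 10.16, 10.21, 10.24, 10.24 and 10.36 in KO livers at 0 h. In WT the log2 level of Psmc3 was 9.88, 9.91, 9.91, 9.95 and 10.04 at 12 h, against 10.15, 10.21, 10.23, 10.28 and 10.40 at 0 h. The KO livers met at 10.16 and the WT livers were apart, with a log2 fold change of -0.26 ± 0.07 in KO (SE, n = 5 per time, limma adjusted p = 0.00845) and -0.32 ± 0.07 in WT (adjusted p = 0.00164). Psmc5 had log2 levels of 10.58, 10.59, 10.61, 10.66 and 10.84 in KO livers at 12 h, against 10.86, 10.87, 10.89, 10.91 and 10.97 in KO livers at 0 h. WT values of Psmc5 were 10.56, 10.60, 10.60, 10.62 and 10.63 at 12 h, against 10.83, 10.85, 10.85, 10.90 and 10.98 at 0 h. The times did not overlap, and the log2 fold change was -0.24 ± 0.06 in KO (SE, n = 5 per time, limma adjusted p = 0.00532) and -0.28 ± 0.06 in WT (adjusted p = 0.00148).

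In the lid, Psmd7, Psmd12, Psmd13 and Psmd14 fell in both genotypes, and Psmd3, Psmd6 and Psmd8 did not pass in either, with log2 fold changes between -0.12 and 0.07. Psmd14 is the enzyme that cuts the ubiquitin chain from the substrate. Its log2 level was 10.48, 10.61, 10.66, 10.69 and 10.73 in KO livers at 12 h, against 10.92, 10.99, 11.05, 11.06 and 11.13 in KO livers at 0 h. In WT its log2 level was 10.44, 10.53, 10.61, 10.73 and 10.85 at 12 h, against 10.70, 10.79, 10.85, 10.88 and 11.06 at 0 h. The times were apart in KO and overlapped in WT, and the log2 fold change of Psmd14 was -0.40 ± 0.08 in KO (SE, n = 5 per time, limma adjusted p = 0.00126) and -0.23 ± 0.08 in WT (adjusted p = 0.0429). The WT call was lost without WT mouse 80, 111, 145, 146, 147, 169 or 170, with log2 fold changes between -0.24 and -0.17, and with each array centred on its median, at -0.14.

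**Figure D3:**
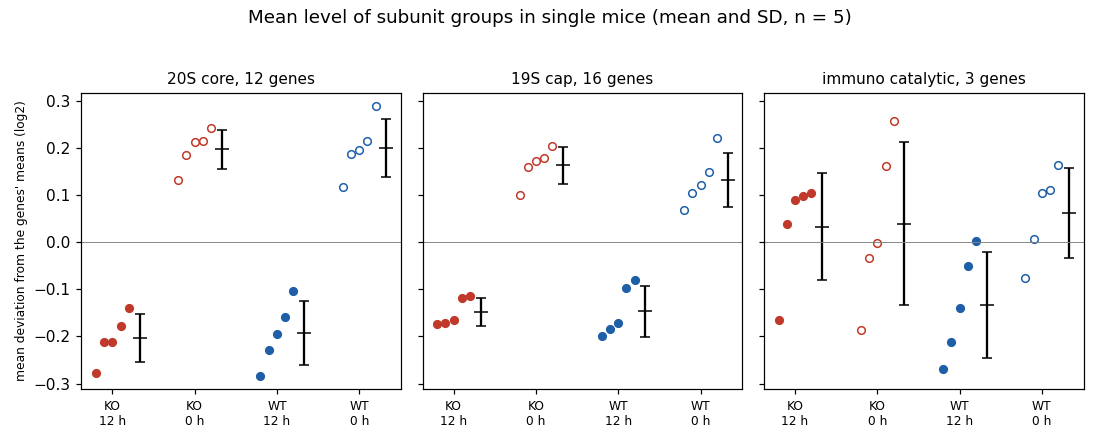
Mean deviation of 3 subunit groups from each gene's mean over all arrays (log2), in single mice, KO in red and WT in blue, 12 h filled and 0 h open, with mean and SD (n = 5). For core and cap the 12 h mice all lie below 0 and the 0 h mice all above, and for the immunoproteasome subunits the groups overlap.

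Averaged over its genes, the core lay at -0.20 ± 0.05 in KO at 12 h against 0.20 ± 0.04 in KO at 0 h, and at -0.19 ± 0.07 in WT at 12 h against 0.20 ± 0.06 in WT at 0 h (mean deviation from the genes' means, log2, SD, n = 5). The cap lay at -0.15 ± 0.03 in KO at 12 h against 0.16 ± 0.04 in KO at 0 h, and at -0.15 ± 0.05 in WT at 12 h against 0.13 ± 0.06 in WT at 0 h. The immunoproteasome subunits lay at 0.03 ± 0.11 in KO at 12 h against 0.04 ± 0.17 in KO at 0 h, and at -0.13 ± 0.11 in WT at 12 h against 0.06 ± 0.10 in WT at 0 h. In core and cap the 12 h and 0 h mice did not overlap, while the immunoproteasome mice did.

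Most of the chaperones that build the particle fell. All 4 chaperones of the 20S core (Psmg1 to Psmg4) fell in KO and 3 in WT, Psmg2 giving -0.13 there. Of the 3 chaperones of the 19S base, Psmd5 and Psmd10 fell in both genotypes and Psmd9 gave 0.06 in KO and 0.22 in WT (adjusted p = 0.0517). Psmd10, also called gankyrin, had log2 levels of 9.15, 9.15, 9.23, 9.23 and 9.30 in KO livers at 12 h, against 9.66, 9.71, 9.80, 9.99 and 10.01 in KO livers at 0 h. The WT mice had log2 levels of 9.05, 9.19, 9.24, 9.41 and 9.46 at 12 h, against 9.64, 9.70, 9.72, 9.72 and 10.08 at 0 h. The times did not overlap, with the 3 mice of batch 1 (KO mice 77 and 143, WT mouse 146) the highest at 0 h, and the log2 fold change was -0.62 ± 0.09 in KO (SE, n = 5 per time, limma adjusted p = 4.92e-05) and -0.50 ± 0.09 in WT (adjusted p = 0.000465).

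The activators went in different directions. Psme1 and Psme2 form one interferon-inducible activator ring, and Psme2 fell in both genotypes while Psme1 gave -0.09 and -0.09. Psme2 had log2 levels of 10.06, 10.10, 10.20, 10.21 and 10.22 in KO livers at 12 h, against 10.41, 10.48, 10.51, 10.53 and 10.57 in KO livers at 0 h. In WT the log2 level of Psme2 was 10.15, 10.22, 10.27, 10.27 and 10.27 at 12 h, against 10.33, 10.43, 10.50, 10.52 and 10.54 at 0 h. The times did not overlap, and the log2 fold change was -0.34 ± 0.06 in KO (SE, n = 5 per time, limma adjusted p = 0.000274) and -0.23 ± 0.06 in WT (adjusted p = 0.00793). The WT call was lost with each array centred on its median, at -0.14. Psme3, a nuclear activator, gave 0.18 and 0.16 (adjusted p = 0.0502 and 0.0806).

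Of all probe sets, 10.6% rose in KO and 13.5% in WT, and the share that rose in both was not counted. Psme4, a large nuclear activator that promotes degradation of acetylated histones, was the 1 gene of the 46 that rose in both genotypes. Its log2 level was 10.78, 10.78, 10.84, 10.92 and 11.04 in KO livers at 12 h, against 10.37, 10.48, 10.52, 10.54 and 10.58 in KO livers at 0 h. In WT its log2 level was 10.71, 10.78, 10.81, 10.83 and 10.87 at 12 h, against 10.20, 10.50, 10.55, 10.58 and 10.67 at 0 h. Every 12 h liver lay above every 0 h liver, at a log2 fold change of 0.37 ± 0.08 in KO (SE, n = 5 per time, limma adjusted p = 0.0017) and 0.30 ± 0.08 in WT (adjusted p = 0.00787), or 1.29 and 1.23 times the 0 h level.

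Psmf1, a protein that binds the core and inhibits it in the test tube, had log2 levels of 9.45, 9.47, 9.51, 9.51 and 9.54 in KO livers at 12 h, against 9.19, 9.23, 9.32, 9.34 and 9.39 in KO livers at 0 h. WT values of Psmf1 were 9.45, 9.53, 9.56, 9.61 and 9.83 at 12 h, against 9.36, 9.40, 9.43, 9.52 and 9.57 at 0 h. The times were apart in KO and overlapped in WT, and the log2 fold change was 0.20 ± 0.07 in KO (SE, n = 5 per time, limma adjusted p = 0.0453) and 0.14 ± 0.07 in WT (adjusted p = 0.146). Its KO call held when WT mouse 78, 80, 146, 168, 169 or 170 or KO mouse 144 was left out and was lost in the other 13 fits, at log2 fold changes of 0.18 to 0.22. With each array centred on its median the WT value passed, at 0.23. Psmb11, the catalytic subunit of the thymus, gave -0.19 in KO and -0.03 in WT and did not pass. Psme3ip1 fell in both genotypes and Psmc3ip in neither.

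The means of the 4 batches of the 0 h livers spanned a median range of 0.16 (log2) over the 46 genes. Each mean rests on few mice, so this range includes the spread between mice, and a batch difference was not tested. The correlation of arrays within a batch, estimated over all probe sets, was 0.0286. Psmd4 had a mean of 9.63 at 12 h, against batch means of 10.43 to 10.58 at 0 h, and Psma2 had 10.09 at 12 h, against 10.82 to 11.07 at 0 h. Batch 5 holds all 12 h livers and no 0 h liver, so its shift is not measured by these values and time and batch cannot be told apart.

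**Figure D4:**
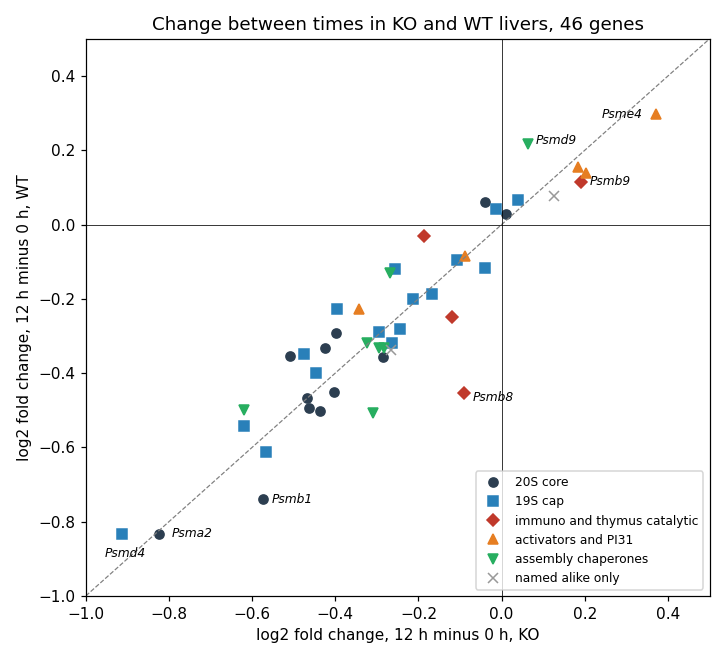
Log2 fold change between 12 h and 0 h in KO livers (x axis) and WT livers (y axis), 1 point per gene, marked by role, with a dashed line of equal change. Most genes lie along the line, and Psmb8 lies farthest from it at -0.09 in KO and -0.45 in WT.

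The changes were alike in the 2 genotypes, which rest on different mice that share the batches. Over the 46 genes the log2 fold changes in KO and WT correlated with Pearson r = 0.923 and Spearman rho = 0.897, and 44 had the same sign, against r = 0.795, rho = 0.718 and 77.1% with the same sign over all 25689 probe sets. Genes are not independent replicates, and these values are a description. No gene of the 46 passed for a difference between the genotypes in the change between times (0% of all probe sets did), at 1 gene with an unadjusted p under 0.05 (6.84% of all probe sets).

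Deviations of the standard subunits from their group means were weakly correlated. After group means were removed, 378 pairs of core and cap genes had a median correlation of 0.18 over 20 arrays, between -0.57 and 0.86, where pairs of such a gene with any other gene had a median of -0.004. The closest pair was Psmc6 and Psmd12 (r = 0.86), followed by Psma1 and Psma2 (r = 0.83). The genes of both pairs were highest in batch 1, which holds KO mice 77 and 143 and WT mouse 146. Psmc6 read 11.14 to 11.17 there, against 10.57 to 10.90 in the other 0 h mice. Psmd12 read 10.98 to 11.06, against 10.68 to 10.83. Psma1 read 11.42 to 11.49, against 11.10 to 11.35, and Psma2 read 11.05 to 11.09, against 10.75 to 10.92. Psma6 and Psmc1 had the same order, and Psmb5 did not. With group and batch both removed, a setting chosen after seeing the data, the median over the 378 pairs was 0.16, and r was 0.68 for Psmc6 and Psmd12 and 0.72 for Psma1 and Psma2. The 3 immunoproteasome pairs had a median of 0.47, or 0.43 with batch removed, and pairs of an immunoproteasome gene with a core or cap gene had -0.09, or 0.05 with batch removed. All pairs share the arrays and their normalization. Outside the members, deviations of Dynlrb1, a dynein light chain, followed the mean of core and cap most closely (r = 0.84, 19615 genes compared), then Accsl (0.77), Lage3 (0.75) and Tomm7 (0.75), a subunit of the mitochondrial import pore. With batch removed these values were 0.78 for Dynlrb1, 0.90 for Accsl, 0.68 for Lage3 and 0.74 for Tomm7. Next in the ranking before batch was removed were Sf1 (0.74) and Olfr1461 (0.74). As the highest of 19615 correlations, such values can be large by chance. Those with batch removed belong to the same picked genes and are no separate check.

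Genes of proteins that work beside the proteasome changed in both directions. Of 19 measured cofactors and regulators, 6 fell and 4 rose in KO, where 9.69% of all probe sets fell and 10.6% rose. In WT 5 fell and 5 rose, where 14.3% of all probe sets fell and 13.5% rose. Sem1, a small subunit of the cap named outside the Psm series, fell by 0.71 in KO and fell by 0.86 in WT (log2, adjusted p = 7.97e-06 and 7.12e-07). The ubiquitin shuttles Ubqln1 (-0.35 and -0.28), Ubqln2 (-0.33 and -0.40) and Rad23b (-0.20 and -0.33) fell, as did the cap-bound thioredoxin Txnl1 (-0.32 and -0.31). Nploc4, a cofactor of the p97 unfoldase, rose (0.45 and 0.32), as did Nfe2l1, a transcription factor of proteasome genes (0.26 and 0.30), the proteasome-binding scaffold Ecpas (0.23 and 0.20) and the proteasome-bound ligase Ube3c (0.23 and 0.22). Pomp, the maturation factor of the core, gave -0.17 and -0.08 without passing. None of 4 measured genes of ubiquitin activation and transfer passed. In the class I antigen presentation list the chaperones Calr (-0.51 and -0.54) and Pdia3 (-0.34 and -0.35) fell in both genotypes. Irf1, a transcription factor of the interferon response, fell by 0.36 in WT and gave -0.17 in KO without passing, a difference that did not pass either (0% of all probe sets did). The peptide transporter genes Tap1 and Tap2 did not pass.

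No proteasome gene passed for genotype. At 12 h none of the 46 genes passed (0.0234% of all probe sets did), 3 had an unadjusted p under 0.05 (12.5% of all probe sets), and none separated KO from WT mice without overlap (2.42%). At 0 h none passed (0% of all probe sets), 2 had an unadjusted p under 0.05 (4.47%) and none separated the genotypes (0.728%). Over both times none passed (0.0117%), with 4 at an unadjusted p under 0.05 (9.88%). The median log2 fold change of KO minus WT was -0.01 at 12 h and -0.01 at 0 h. The 95% intervals reached a median of 0.16 log2 units to each side at either time. The farthest bound of any member was 0.48 in size at 12 h (Psmb8) and 0.42 at 0 h (Psmb1). Each interval stands for 1 gene, so the 95% does not hold for the 46 genes jointly.

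**Figure D5:**
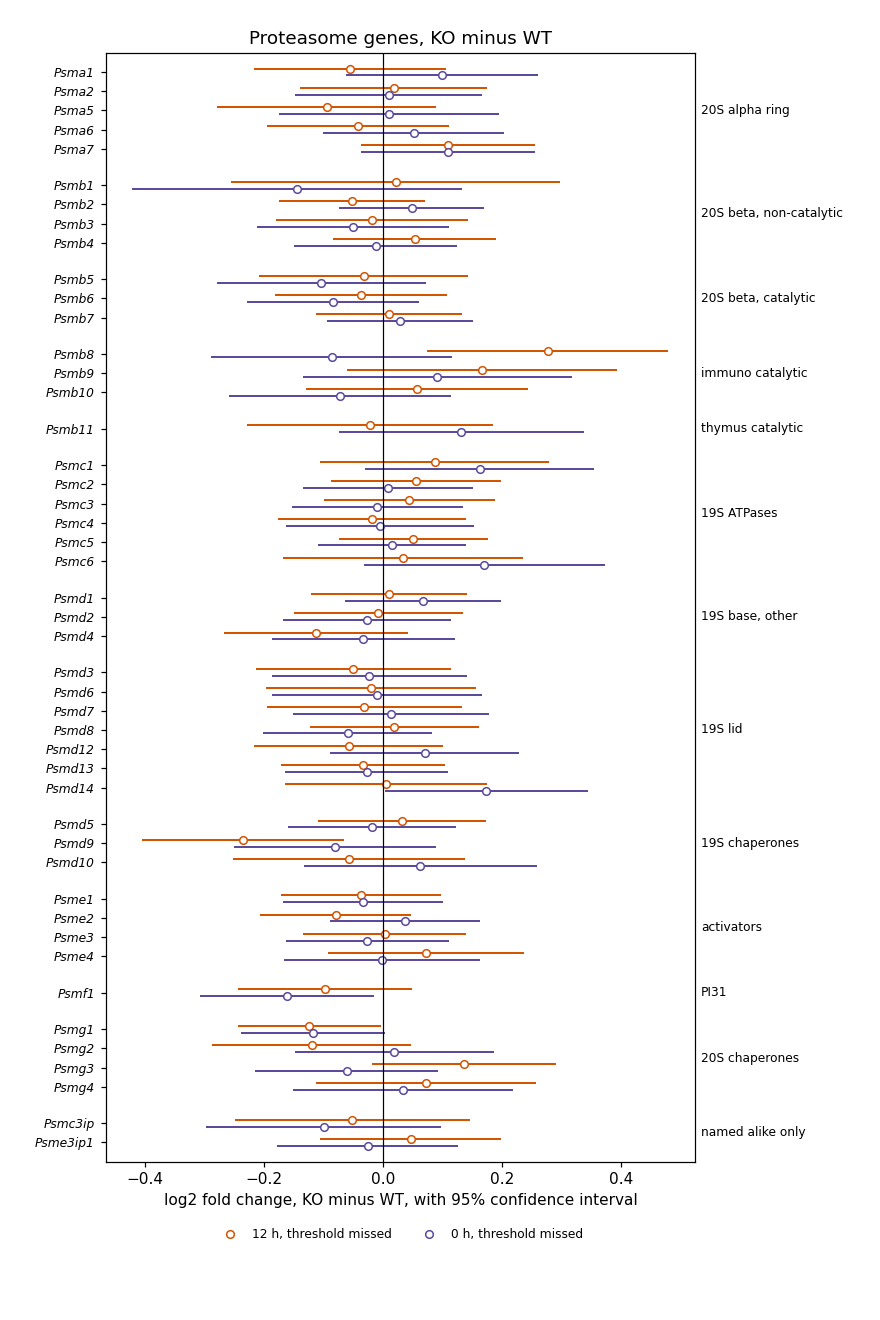
Log2 fold change of KO minus WT for each of the 46 genes, grouped by role, at 12 h (orange, upper line) and 0 h (purple, lower line), with 95% confidence intervals. All points are open because none passed an adjusted p under 0.05, and Psmb8 at 12 h has the highest value at 0.28.

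The 4 genes with the largest size of KO minus WT over both times were Psmd9, Psmf1, Psmb9 and Psmc1, and none passed. At 0 h alone, Psmd14 (0.17) and Psmc6 (0.17) had the largest size. Psmd9, a chaperone of the cap base, had log2 levels at 12 h of 9.50, 9.52, 9.53, 9.57 and 9.69 in KO livers, against 9.65, 9.71, 9.77, 9.78 and 10.07 in WT livers. At 0 h Psmd9 had 9.35, 9.37, 9.48, 9.63 and 9.65 in KO livers, against 9.48, 9.52, 9.57, 9.63 and 9.70 in WT livers. KO was the lower at 12 h but the groups overlapped at both times. The log2 fold change of Psmd9 was -0.23 at 12 h (exact permutation p = 0.0159, limma adjusted p = 0.235) and -0.08 at 0 h (exact permutation p = 0.317, adjusted p = 0.987). Within batches 1 to 4 it was -0.14, -0.17, 0.10 and -0.07.

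Psmf1 had KO minus WT of -0.10 at 12 h (two-sided exact permutation p = 0.143) and -0.16 at 0 h (exact p = 0.0159, limma adjusted p = 0.987), and KO was the lower in each batch, by log2 fold changes of -0.10, -0.34, -0.07, -0.11 and -0.10 in batches 1 to 5. Psmc1 had 0.09 at 12 h (exact p = 0.254) and 0.16 at 0 h (exact p = 0.175), with KO the higher in each batch, at 0.17, 0.03, 0.07, 0.12 and 0.09. Psmb9 had 0.17 at 12 h (exact p = 0.0952) and 0.09 at 0 h (exact p = 0.587), with -0.08, 0.21, 0.05 and 0.52 in batches 1 to 4. Psmb8, picked out for its change with time, had 0.28 at 12 h (exact p = 0.0238, adjusted p = 0.244) and -0.09 at 0 h (exact p = 0.444), with -0.02, 0.07, -0.34 and 0.12 in batches 1 to 4. These 10 exact p-values are unadjusted and belong to genes picked for their size. With 5 mice against 5 the smallest p such a permutation can give is 0.0079, and the batches of the 0 h livers hold 1 or 2 mice of a genotype.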

How the data were processed

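The deposited values are log2 expression per probe set of the GeneChip Mouse Gene 1.0 ST array, which the authors made with RMA (named without version in the submitters' processing notes), so background and scale were set before deposit. Levels of different probe sets were compared only to pick out brighter probe sets. Whether the livers were normalized alone and the genome build are not given in the sources used here. No column of another sample was used. Of 35557 probe sets, 9868 held no value and were left out, and 25689 were tested. Gene names came from the platform annotation.

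The fit took 4 group means over 20 arrays (limma 3.58.1 under R 4.3.3, functions lmFit and eBayes), with Benjamini-Hochberg adjustment over all probe sets and a threshold of 0.05. The SE of a gene rests on its spread pooled over all 4 groups and moderated over all probe sets, so it is equal in KO and WT. It does not show the spread of the mice of 1 group alone. Intervals are at 95% and use this SE. Exact permutation tests were two-sided, over 5 against 5 mice. Replicates are different mice. The array number limits the precision. Data were simulated with the spread of each of the 25689 probe sets. A log2 fall of 0.5 was given to 100 of them in KO at 12 h, and of 0.3 to another 100. Of these, 56% and 17% were recovered. The real comparison of the times called 5211 probe sets in KO. With so many calls the adjusted threshold is less strict, so recovery of real changes between the times can be higher.

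Values of every mouse were given for the catalytic subunits, for the 4 highest and 4 lowest called fold changes with time in either genotype and for the 4 largest sizes of KO minus WT over both times. Exact tests were run for the last of these and Psmb8. Cofactors were named at up to 4 called per list and direction, and others after their values were seen. The members, lists and rules were chosen with earlier results of these data known. Batches as fixed or random block, the arrays compared alone, brighter probe sets, quantile normalization, centring, a trended robust fit, array weights and leaving out each array were tried as alternatives. Motifs were searched on both strands in the 250 bases before each gene start. Figures were drawn with matplotlib.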

Additional observations from a re-analysis of the deposited data

Results flagged for a closer look

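Among 92 sets of 5 mice examined for a mouse that stands far from the other 4, 3 had one, where chance gives about 1 in 20, or 4.6. Psmb5 read 9.892 in 1 WT mouse at 12 h (mouse 111), and the other 4 read 10.25 to 10.35. Psmd10 read 10.081 in 1 WT mouse at 0 h (mouse 146), and the other 4 read 9.64 to 9.72. It is the WT array of batch 1, whose 2 KO arrays read 9.99 and 10.01, against 9.66 to 9.80 in the other KO mice at 0 h, and the part of the batch in this value was not tested. The mean deviation of the immunoproteasome subunits was -0.16545 in 1 KO mouse at 12 h (mouse 110), and the other 4 had 0.04 to 0.10.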

How the results depend on the processing

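The number of proteasome genes that passed for time was 29 in KO and 30 in WT. Over 7 other settings it was 26 to 33 in KO and 26 to 33 in WT, and with any 1 array left out 26 to 30 in KO and 27 to 32 in WT. No gene passed for genotype or for the difference between the genotypes in the change with time under any setting run. The median log2 fold change of the 46 genes moved by more than its spread with quantile normalization, to -0.34 for time in WT and 0.0332 for KO minus WT at 12 h, and with centring, to -0.22 for time in KO, -0.20 for time in WT and -0.0560 for KO minus WT at 12 h. The cause was not tested. With 1 array left out, 3 small values that never passed changed sign: Psmb9 for KO minus WT at 0 h ran between -0.0192 and 0.17, Psmb9 for the difference in the change between -0.00564 and 0.185, and Psmb7 for time in KO between -0.00621 and 0.0259. Among alternatives other than left-out arrays, calls were lost for Psmf1 in KO (2 of 7), Psmb5 in KO (1 of 7) and, in WT, Psmb10, Psmd14 and Psmd2 (3, 3 and 4 of 7) and Psme2 (1 of 7). With centring these WT values were -0.16 for Psmb10, -0.14 for Psmd14, -0.10 for Psmd2 and -0.14 for Psme2. Calls were gained for Psmd2 in KO and Psmf1 in WT (1 of 7 each). Each gene had 1 probe set with values, so the setting with all probe sets of a gene gave no other value. No paired analysis was possible because no mouse number occurs in more than 1 group. Changes near 0.3 were seldom recovered in simulated data in which few probe sets changed, a stricter setting than the comparison of the times. A gene that did not pass may still differ.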
